A study of Mus musculus with 15 samples.

Results

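The 43 genes described here encode parts of the cell cycle engine and of the DNA replication machinery. They were taken by name, from a list of genes of G1 and S phase, replication, G2 and mitosis, and of inhibitors of the cyclin-dependent kinases (CDKs), and not by their measured values. All 43 were found among the 43432 genes of the deposited table. Of these, 42 passed the filter on low counts and belong to the 16736 genes tested. Cdk6 did not pass, with between 0 and 6 reads per library.

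The cells were of the mouse line 266-6, an acinar line from the exocrine pancreas. The line was made from a tumour that arose in a transgenic mouse carrying the SV40 T antigen under an elastase promoter, which is background knowledge and not stated in the labels. All cells spent 24 h in stripped medium and then 24 h with a ligand or vehicle, after growth in medium with 10% fetal bovine serum. The 5 groups had 3 libraries each. One received the vehicle DMSO, one AM580 (an agonist selective for the retinoic acid receptor RARα), one CD3254 (an agonist of the retinoid X receptors, RXR), one both agonists (the joint treatment), and one 9-cis retinoic acid, a ligand of RAR and RXR alike. The comparisons asked how ligands for the partners of this heterodimer, alone and together, change transcript levels. The labels give no ligand concentrations, and do not say whether the replicates were grown apart. The p-values therefore measure only the spread among these libraries, which may be technical. All libraries are of 1 cell line.

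Across all genes the libraries parted by something other than the ligand. A set of 5 libraries differed from the other 10: replicate 2 under the joint treatment, and replicate 1 under each of DMSO, AM580, CD3254 and 9-cis retinoic acid. With 190 cell cycle genes left out, the sign of the leading principal component, which held 48.3% of the variance, gave the same assignment for 15 of 15 libraries. These are few of the 16736 genes tested, and the component held 48.3% with them too. The agreement is therefore no independent support for the set. The labels name no batch or culture condition for the set, and it was read from these counts, so no p-value is given between the sets. AM580 replicate 1 also stood apart within the set, with short genes high and long genes low. Replicate 3 of 9-cis retinoic acid had 14600962 reads assigned to genes against 28501170 to 46801058 in the other 14 libraries, and 15.6% of its gene reads fell on rRNA-like genes. These 2 are called the outlying libraries below, and results without both rest on a choice made after seeing the data. Of 15 acinar markers 13 passed the filter, among them Ctrb1 (chymotrypsinogen) at 3841 to 7201 CPM and Cela1 (elastase) at 777 to 3275 CPM, while Cpb1 and Amy2a5 were at or near 0. Of 5 endocrine markers the hormone genes Ins1, Ins2, Gcg and Sst were at or near 0, while Chga, a protein of secretory granules, stood at 166 to 447 CPM. Of 5 stromal markers Pdgfrb, a growth factor receptor, stood at 155 to 342 CPM and the other 4 at up to 7.10 CPM. Of 4 immune markers 1, Cd68, passed the filter, and the leukocyte markers Ptprc and Cd3e were at or near 0. The 4 summed to 4.39 to 23.9 CPM per library. All 6 duct markers passed the filter and summed to 54.7 to 89.3 CPM. Of 3 endothelial markers 2 passed, and the 3 summed to 1.13 to 3.42 CPM.

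Cells enter the cycle when D-type and E-type cyclins activate CDKs, which phosphorylate the retinoblastoma protein and release the E2F transcription factors. E2F proteins then drive genes for licensing of replication origins, for the replication fork and for nucleotide supply, and later a complex of B-MYB, FOXM1 and the MuvB core drives the genes of G2 and mitosis. CDK inhibitors hold the kinases back, and MYC promotes growth and cell cycle entry. SV40 T antigen binds both the retinoblastoma protein and p53, so this control is altered in cells that express it.

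The promoters of the G2/M members and of the licensing and fork members differed in the elements they held. RefSeq promoter windows on GRCm38.p6, 250 bases before to 50 bases after each start, were matched by symbol for 34 of the 43 members. Ccnd1, Ccnd2, Ccne2, Ccna2, Mcm4, Gins2, Foxm1, Aurkb and Myc were not matched. The cell cycle homology region (CHR, searched as TTTGAA on both strands), a MuvB element, occurred in 8 of 11 G2/M members (72.7%), in 2 of 9 licensing and fork members (22.2%) and in 20.2% of all 27025 genes with a window. An E2F element (searched as TTTGGCGC, TTTCCCGC, TTTGCCGC or TTTCGCGC on both strands, which can overlap one another) occurred in 6 of 9 licensing and fork members (66.7%), in 1 of 11 G2/M members (9.09%) and in 2.6% of all genes. It occurred in 0 of 4 nucleotide supply members, 1 of 5 G1 members, 1 of 2 E2F factors and 0 of 3 CDK inhibitors, and the CHR run in 0, 0, 1 and 0 of these. The CCAAT box (CCAAT on both strands), bound by NF-Y, was in 10 of 11 G2/M members, in 7 of 9 licensing and fork members and in 41.1% of all genes. Among the 11430 tested genes with a window the shares were 14.1% for CHR, 4.54% for E2F and 42.8% for CCAAT. A match is only a run of letters and not a measured binding site.

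The 250 bases before the start are printed for 3 G2/M genes that differ in how their levels varied below (Cdc20, an activator of the anaphase-promoting complex, Cdk1, the mitotic kinase, and Mki67, which encodes the proliferation marker Ki-67) and for 2 subunits of the MCM helicase. Sequences run 5′ to 3′ on the gene's strand, and capitals mark CHR, E2F and CCAAT letters, on either strand. The windows are chr4:118437344-118437593 (minus strand) for Cdc20, chr10:69352913-69353162 (minus strand) for Cdk1, chr7:135716380-135716629 (minus strand) for Mki67, chr8:75109259-75109508 (plus strand) for Mcm5 and chr1:128359706-128359955 (minus strand) for Mcm6.
Cdc20: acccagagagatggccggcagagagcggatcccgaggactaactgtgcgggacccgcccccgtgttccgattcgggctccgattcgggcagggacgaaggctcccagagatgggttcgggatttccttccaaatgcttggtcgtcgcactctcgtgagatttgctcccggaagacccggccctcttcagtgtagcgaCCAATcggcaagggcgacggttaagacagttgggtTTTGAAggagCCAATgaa
Cdk1: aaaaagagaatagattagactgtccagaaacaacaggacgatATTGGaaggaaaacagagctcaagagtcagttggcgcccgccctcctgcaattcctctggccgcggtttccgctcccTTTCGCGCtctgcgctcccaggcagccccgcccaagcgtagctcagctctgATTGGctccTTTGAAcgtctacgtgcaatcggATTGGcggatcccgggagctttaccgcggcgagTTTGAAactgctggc
Mki67: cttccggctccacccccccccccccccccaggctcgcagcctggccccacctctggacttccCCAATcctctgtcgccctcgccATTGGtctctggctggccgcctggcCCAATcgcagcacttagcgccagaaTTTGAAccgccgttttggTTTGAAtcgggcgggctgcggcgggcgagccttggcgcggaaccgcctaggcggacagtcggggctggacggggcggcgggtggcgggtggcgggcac
Mcm5: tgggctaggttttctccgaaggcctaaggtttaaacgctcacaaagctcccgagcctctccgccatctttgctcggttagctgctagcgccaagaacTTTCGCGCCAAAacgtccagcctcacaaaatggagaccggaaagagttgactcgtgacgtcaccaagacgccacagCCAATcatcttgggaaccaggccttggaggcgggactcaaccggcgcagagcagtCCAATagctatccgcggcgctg
Mcm6: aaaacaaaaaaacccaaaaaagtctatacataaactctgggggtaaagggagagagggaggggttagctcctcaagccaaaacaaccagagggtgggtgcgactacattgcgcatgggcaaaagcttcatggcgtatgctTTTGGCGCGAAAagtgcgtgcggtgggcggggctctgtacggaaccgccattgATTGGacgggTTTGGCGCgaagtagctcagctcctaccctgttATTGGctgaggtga
Cdc20 has 1 CHR run that begins 18 bases before the start, between CCAAT boxes that begin 53 and 8 bases before it. Cdk1 has CHR runs 71 and 15 bases before the start, and 1 E2F run 131 bases before it. Mcm5 and Mcm6 have no CHR run in their windows, and their E2F runs overlap in part.

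The cells carried transcripts of every phase of the cycle. Levels between genes are compared per kilobase of exon, as CPM per kb. CPM are read counts scaled to library size with TMM factors, here divided by the exon length in GENCODE M21. Cdk4, the G1 kinase that pairs with D-type cyclins, had the highest level of all members at 268 ± 37.4 CPM per kb (SD, n = 15 libraries). Mcm7, a helicase subunit, followed at 201 ± 30.5 and Pcna, the sliding clamp of the fork, at 130 ± 16.9 CPM per kb. The partners of Cdk4 were far lower, with Ccnd3 at 4.67 ± 2.42, Ccnd1 at 0.467 ± 0.316 and Ccnd2 at 0.0409 ± 0.0277 CPM per kb. Cdk6, the other partner of the D-type cyclins, stood at 0.00383 ± 0.00375 CPM per kb. In bulk libraries fewer cells in a phase and less RNA per cell cannot be told apart.

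No member passed the threshold (FDR of 0.05, Benjamini-Hochberg over all 16736 genes) with any ligand. In edgeR's quasi-likelihood test with the library set as a term, 0 of 42 members were called in each of the 4 comparisons with DMSO. Over all genes the test called 0.0299% with AM580, 0.0239% with CD3254, 0.125% with the joint treatment and 0.0299% with 9-cis retinoic acid, so the members' count of 0 is near this background. DESeq2 also called 0 members in each. At an unadjusted p under 0.05 there were 4 members with AM580, 0 with CD3254, 3 with the joint treatment and 2 with 9-cis retinoic acid, against 4.21%, 1.98%, 4.79% and 3.97% of all genes. The members' median log2 change was 0.14 with AM580, -0.05 with CD3254, 0.01 with the joint treatment and 0.03 with 9-cis retinoic acid, and the median over all genes was 0.00, -0.00, -0.01 and 0.01 in the same order.

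The intervals bound what could have gone unseen only against the spread among these libraries, which may be technical. They come from the fit with the library set term, which was read from these counts. Without that term the members' median SE with AM580 was 0.217 against 0.146, and no intervals are given for that fit. The 95% interval of the change lay within 2-fold either way for 38 of 42 members with AM580, 40 with CD3254, 40 with the joint treatment and 39 with 9-cis retinoic acid. Within 1.5-fold either way the counts were 27, 35, 36 and 34. Mki67 was among the wide ones: its log2 change with AM580 was -0.21 with an interval of -0.99 to 0.58, and with 9-cis retinoic acid -0.50 with an interval of -1.27 to 0.27. Pcna was bounded more tightly, at 0.00 (-0.30 to 0.31) with AM580 and 0.06 (-0.25 to 0.36) with the joint treatment.

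**Figure D1:**
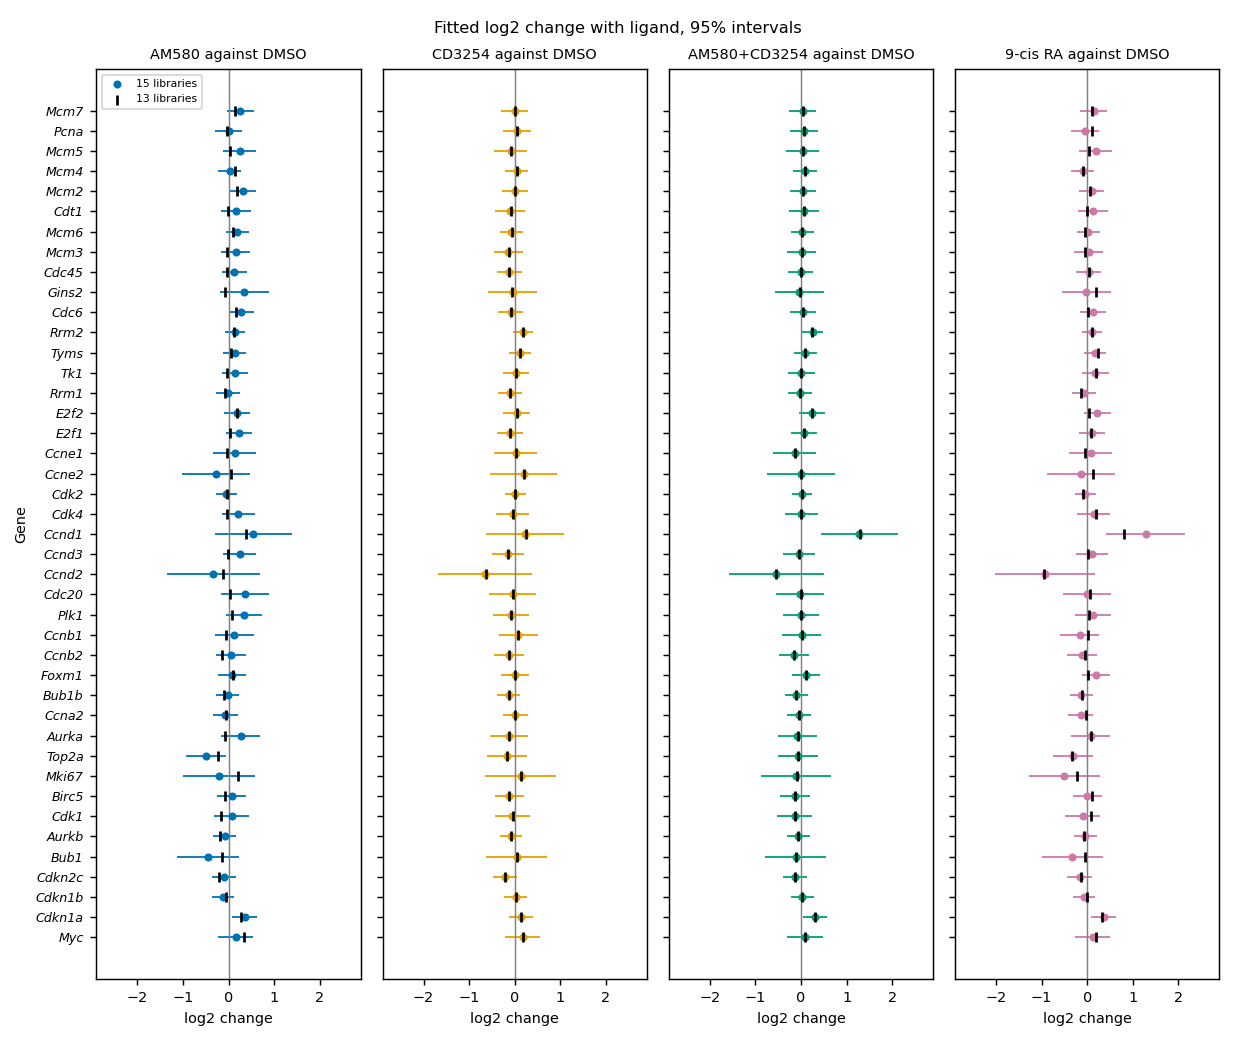
Fitted log2 change of each of the 42 members tested against DMSO (x axis) in 4 panels, 1 per ligand treatment, with genes on the y axis ordered by role; circles and bars are the fit of all 15 libraries with its 95% interval, and black ticks the fit without the outlying libraries. Most intervals include 0, and the widest belong to Ccnd1, Ccnd2, Ccne2, Mki67 and Bub1.

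Cdkn1a (ENSMUSG00000023067, chr17:29090976-29100727, plus strand, GRCm38), which encodes the p53-inducible inhibitor of CDK2 and other kinases, had the smallest unadjusted p of all members with AM580. Its DMSO libraries stood at 99.7, 52.4 and 46.1 CPM for replicates 1 to 3, and its AM580 libraries at 135, 64.7 and 57.3 CPM. The CD3254 libraries stood at 103, 56.3 and 56.0 CPM, the joint libraries at 69.3, 116 and 56.6 CPM and the 9-cis retinoic acid libraries at 113, 66.8 and 67.7 CPM. Within the 5-library set the DMSO library was the lowest, and among the other 10 both DMSO libraries were below all 8 ligand libraries. The fitted log2 change was 0.35 ± 0.12 with AM580 (SE, edgeR FDR = 0.808), 0.14 ± 0.12 with CD3254 (FDR = 1.00), 0.31 ± 0.12 with the joint treatment (FDR = 0.890) and 0.36 ± 0.12 with 9-cis retinoic acid (FDR = 0.980). None of the 4 passed the threshold. The groups overlap over all 3 libraries, since the set lies above the rest in every treatment. The 4 comparisons share the DMSO libraries.

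Rrm2 (ENSMUSG00000020649, chr12:24708241-24714146, plus strand), the small subunit of ribonucleotide reductase, was the other of the 2 members with DMSO lowest in both sets, a pattern chosen after its values were seen and met by 0.55% of all genes. No member had DMSO highest in both, against 0.639% of all genes. Rrm2 stood at 158, 275 and 287 CPM with DMSO, at 181, 315 and 294 CPM with AM580 and at 182, 314 and 314 CPM with CD3254. It stood at 328, 183 and 350.2 CPM with the joint treatment and at 171, 302 and 301 CPM with 9-cis retinoic acid. The distance between the library sets exceeded any distance between treatments for Rrm2. The log2 change was 0.25 ± 0.10 with the joint treatment (SE, edgeR FDR = 0.890) and 0.17 ± 0.10 with CD3254 (FDR = 1.00), neither past the threshold.

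Ccnd1 (ENSMUSG00000070348, chr7:144929931-144939925, minus strand), the gene of cyclin D1, gave the largest fitted change of the members and rested on few reads, between 34 and 169 per library. It stood at 1.34, 1.178 and 0.980 CPM with DMSO and at 1.82, 6.05 and 2.02 CPM with the joint treatment, so these groups did not overlap. With 9-cis retinoic acid it stood at 3.33, 1.68 and 3.85 CPM, also above every DMSO library. AM580 (3.67, 1.37 and 0.924 CPM) and CD3254 (2.94, 0.759 and 1.06 CPM) overlapped DMSO. The log2 change was 1.28 ± 0.40 with the joint treatment (SE, edgeR FDR = 0.600) and 1.29 ± 0.40 with 9-cis retinoic acid (FDR = 0.980), and neither passed the threshold. Without the outlying libraries the values were 1.30 (FDR = 0.0874) and 0.81 (FDR = 0.470).

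The other members with the smallest p moved less than Ccnd1 did with the joint treatment or with 9-cis retinoic acid. Mcm2, a helicase subunit, stood at 447, 444 and 391 CPM with DMSO and at 627, 510.4 and 465 CPM with AM580, without overlap, and its log2 change was 0.32 ± 0.13 (SE, edgeR FDR = 0.808). The library at 627 CPM is AM580 replicate 1, and without the outlying libraries no replication member had an unadjusted p under 0.05 with AM580. Mcm2 stood at 408, 435 and 438 CPM with CD3254, at 453, 426 and 437 CPM with the joint treatment and at 432, 463 and 475 CPM with 9-cis retinoic acid, all inside or near the DMSO range. Top2a, the topoisomerase that untangles sister chromatids, stood at 1118, 923 and 1147 CPM with DMSO and at 509, 875 and 912 CPM with AM580, with a log2 change of -0.49 ± 0.20 (FDR = 0.808). Its lowest value was again in AM580 replicate 1. Top2a stood at 996, 928 and 904 CPM with CD3254, at 881, 937 and 1246 CPM with the joint treatment and at 912, 793 and 875 CPM with 9-cis retinoic acid.

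Cdkn2c, an inhibitor of CDK4 and CDK6, had the smallest p with CD3254. It stood at 105, 228 and 189 CPM with DMSO and at 99.0, 172 and 173 CPM with CD3254, and the log2 change was -0.21 ± 0.12 (SE, edgeR FDR = 1.00). It stood at 120.04, 178 and 172 CPM with AM580, at 179, 109 and 177 CPM with the joint treatment and at 98.3, 191 and 171 CPM with 9-cis retinoic acid. In each group 1 library, that of the set, was far below the other 2. Ccnd2, the gene of cyclin D2, was at the floor of the data with 2 to 29 reads per library, and ranged from 0.125 to 1.04 CPM. Its 3 values were 0.633, 0.513 and 0.276 CPM with DMSO, 0.616, 0.243 and 0.322 CPM with AM580 and 0.583, 0.246 and 0.173 CPM with CD3254. They were 0.145, 1.04 and 0.125 CPM with the joint treatment and 0.542, 0.149 and 0.171 CPM with 9-cis retinoic acid, and every group overlapped DMSO.

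By role, the 11 licensing and fork members were all above 0 with AM580, with a median log2 change of 0.19, and 2 of them (Mcm2 and Cdc6) had an unadjusted p under 0.05. Without both outlying libraries, 6 of the 11 were above 0 and the median was 0.03. The replication median was -0.07 with CD3254, 0.04 with the joint treatment and 0.04 with 9-cis retinoic acid. The 14 G2/M members had medians of 0.06, -0.07, -0.07 and -0.10 in the same order, and 1 of 14 had an unadjusted p under 0.05 with AM580, 0 with the others. Myc lay above 0 in each, at 0.16, 0.17, 0.09 and 0.12, with an SE of 0.18 in each. Without both outlying libraries Myc was at 0.33, 0.17, 0.09 and 0.19. In that fit its change with AM580 had an unadjusted p under 0.05 in edgeR's test, and those with the other ligands did not. No member passed the FDR threshold in that fit.

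The 6 comparisons among ligands also called 0 of 42 members each, in edgeR and in DESeq2. Over all genes the share called was 0.012% for the joint treatment against AM580, 0.0299% for it against CD3254, 0.0% for the interaction, 0.00598% for the joint treatment set against 9-cis retinoic acid, 0.0% for the latter against AM580 and 0.012% for AM580 against CD3254. At an unadjusted p under 0.05 the members numbered 1 (Mcm2), 1 (Ccnd1), 0, 0, 0 and 6, against 5.62%, 2.04%, 1.98%, 3.39%, 1.44% and 3.83% of all genes. The 6 were Cdc6 (a loader of the helicase), E2f1, Mcm2, Mcm6, Ccnd3 and Plk1 (a mitotic kinase), all higher with AM580 than with CD3254, with log2 differences from 0.27 for Mcm6 to 0.42 for Plk1. Without the outlying libraries the count was 1, Cdc6 at 0.24, and with a replicate block added to the fit of all libraries it was 3. For the joint treatment against CD3254 all 11 licensing and fork members were above 0, 0 of them at an unadjusted p under 0.05. Their median was 0.10, and 0.09 without the outlying libraries. For AM580 against CD3254 9 were above 0 and 2 below in both fits, with medians of 0.27 and 0.10. Both comparisons share the CD3254 libraries.

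The library sets were read from these counts, so that genes differ between them follows in part from how the set was found. Of the 42 members tested, 9 were lower in all 5 libraries of the set than in any of the other 10, 4 were higher in all 5, and 29 overlapped. Over all genes 12.6% were lower and 13.4% higher in this way. Without the outlying libraries, 17 members were lower and 4 higher, against 18.5% and 18.7% of all genes. Without these libraries the sign of the difference turned for 5 members: Mki67 (-0.11 to 0.11), Top2a (-0.12 to 0.07), Bub1 (-0.02 to 0.10), Cdk4 (0.04 to -0.12) and Mcm2 (0.04 to -0.04). Hypoxia genes moved with the set: all 11 tested of a list of such genes were higher in all 5 libraries, their summed level was 5764 to 8019 CPM in the set and 968 to 1414 CPM in the rest, and their part in the members' differences was not tested. Of 13 acinar markers tested 4 were lower and 1 higher (summed level 6977 to 12231 CPM in the set, 8257 to 12172 CPM in the rest), and of 6 duct markers 1 was lower and 1 higher (64.1 to 89.3 CPM against 54.7 to 85.2 CPM). Of 4 immune markers only Cd68 passed the filter, and it was higher (the 4 summed to 9.60 to 23.9 CPM against 4.39 to 8.24 CPM), with the leukocyte marker Ptprc at or near 0. Of 4 stromal markers tested Col1a2 was lower (-2.85 ± 0.40, at 0.298 to 1.01 CPM against 3.34 to 6.26 CPM) and Col1a1 higher (2.09 ± 0.49, at 1.56 to 2.05 CPM against 0.200 to 0.599 CPM). The only endocrine marker tested, Chga, overlapped (0.07 ± 0.25), as did both endothelial markers tested, Kdr (-1.496 ± 0.379) and Pecam1 (0.77 ± 0.46), with Cdh5 at or near 0. The part of these markers was not tested either. Differences between the sets are given below as log2 of CPM plus 0.1, the set library minus the mean of the other 2 of its treatment, as mean ± SD over 5 treatments.

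**Figure D2:**
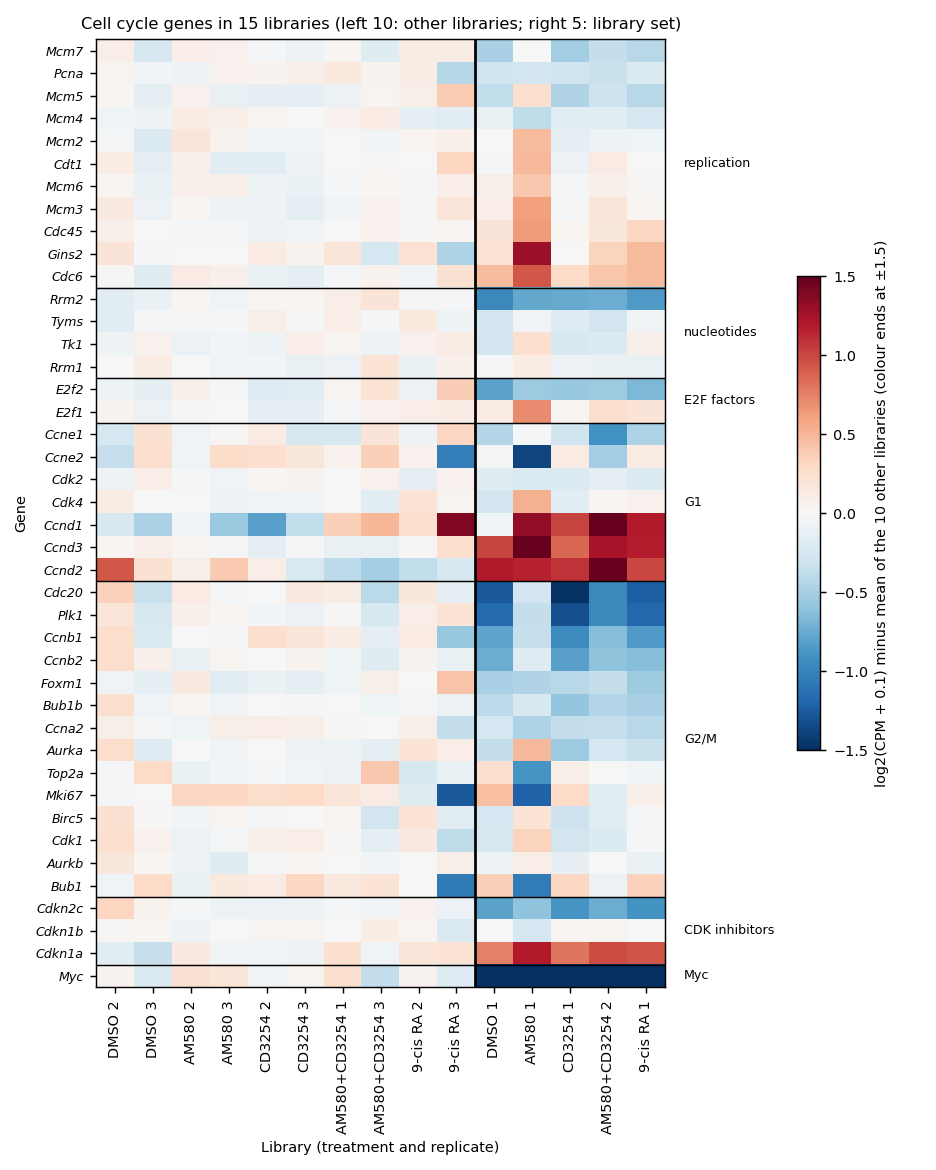
Level of each of the 42 members tested (rows, by role) in the 15 libraries (columns), as log2 of CPM plus 0.1 minus the mean of the 10 libraries outside the set, on a colour scale that ends at 1.5 either way; the black line parts the other 10 libraries (left) from the set of 5 (right). Myc, Rrm2, E2f2, Cdkn2c and most G2/M genes are blue in the set, Ccnd3, Ccnd2, Cdkn1a and Cdc6 red, and the columns of both outlying libraries differ from their neighbours.

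The 11 replication members went both ways, from -0.35 to 0.52 with a median of 0.10, and without overlap 0 were lower and 1 higher. Without the outlying libraries 3 were lower (Pcna, Mcm5 and Mcm7) and the median was 0.04, against the shares of 18.5% and 18.7% of all genes given above. The clamp Pcna stood at 269, 272, 269, 262 and 288 CPM in the set (in the order DMSO, AM580, CD3254, joint, 9-cis retinoic acid) and at 246 to 367 CPM, median 343, in the rest, a difference of -0.28 ± 0.15. The overlap came from 9-cis retinoic acid replicate 3, at 246 CPM. The helicase subunit Mcm5 stood at 321, 489, 304, 334 and 311 CPM in the set and at 374 to 541 CPM, median 409, in the rest (-0.26 ± 0.33). AM580 replicate 1, at 489 CPM, was the only library of the set within the range of the rest. Mcm7 had the lowest difference of the role (-0.35 ± 0.18) and Cdc6 the highest (0.52 ± 0.19). Cdc6 stood at 131, 180.4, 115, 126 and 131 CPM in the set and at 83.0 to 111 CPM, median 94.3, in the rest, so that this loader of the helicase was higher in all 5 while the helicase subunits it loads were not.

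In nucleotide supply Rrm2 stood apart from its partner. It was 1.76-fold lower in the set (-0.82 ± 0.05), at 158 to 183 CPM against 275 to 350.2 CPM. Rrm1, the large subunit of the same reductase, differed by -0.04 ± 0.11 and had the smallest difference of the role. Tyms (thymidylate synthase) and Tk1 (thymidine kinase) overlapped between the sets.

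The E2F factors differed in direction. E2f2 was lower in all 5 libraries, at 27.7 to 33.4 CPM against 42.6 to 62.6 CPM (-0.63 ± 0.15). So were 12.6% of all genes. E2f1 stood at 88.4, 134, 83.4, 97.6 and 93.4 CPM in the set and at 75.2 to 88.3 CPM, median 82.7, in the rest (0.26 ± 0.25). It was above the mean of the rest in all 5 treatments, with the ranges overlapping.

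Among 7 G1 genes tested, Ccnd3 and Ccnd2 were higher in all 5 libraries of the set and Cdk2 lower, against 13.4% and 12.6% of all genes. Ccnd3 stood at 56.9, 96.7, 51.1, 66.0 and 63.4 CPM in the set and at 25.5 to 33.5 CPM, median 28.0, in the rest, 2.32-fold higher (1.21 ± 0.36). Ccnd2 had the largest difference of the role, 1.25 ± 0.63, on few reads. Ccnd1 stood at 1.34, 3.67, 2.94, 6.05 and 3.33 CPM in the set and at 0.759 to 3.85 CPM, median 1.27, in the rest (1.10 ± 0.70), with overlap. Ccne1, the gene of cyclin E1, which activates CDK2, stood at 5.57, 7.48, 6.18, 4.01 and 5.50 CPM in the set and at 6.31 to 9.49 CPM, median 7.51, in the rest (-0.43 ± 0.33, the lowest of the role). Cdk2 was lower in all 5 by a small margin, at 109 to 114.1 CPM against 114.5 to 136 CPM (-0.19 ± 0.03).

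The 14 G2/M members had a median difference of -0.28, against -0.01 over all genes. Without overlap 4 of the 14 were lower (Plk1, Ccnb2, Foxm1 and Bub1b) and 0 higher, against 12.6% and 13.4% of all genes. Without the outlying libraries 8 were lower and 0 higher, against 18.5% and 18.7%. Cdc20 had the largest difference, 2.06-fold lower (-1.05 ± 0.47), at 87.1, 171, 74.8, 106 and 89.6 CPM in the set and 158 to 266 CPM, median 217, in the rest. Only AM580 replicate 1, at 171 CPM, overlapped. Plk1 was 1.99-fold lower (-0.99 ± 0.38), at 60.9, 107, 54.5, 69.8 and 60.3 CPM against 115 to 157 CPM, and Foxm1, the transcription factor of these genes, 1.36-fold lower (-0.45 ± 0.17).

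The cyclins of G2 and mitosis followed with smaller differences. Ccnb1, the gene of cyclin B1, stood at 74.4, 101, 66.5, 82.8 and 71.6 CPM in the set and at 86.7 to 155 CPM, median 134, in the rest (-0.72 ± 0.31), with overlap through the outlying libraries. Ccna2, the gene of cyclin A2, stood at 254, 222, 238, 239 and 229 CPM in the set and at 238 to 325 CPM, median 315, in the rest (-0.37 ± 0.09). Their kinase Cdk1 stood at 262, 391, 257, 269 and 307 CPM in the set and at 237 to 365 CPM, median 319, in the rest (-0.08 ± 0.33), and overlapped also without the outlying libraries, where Ccnb1 and Ccna2 did not.

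Other G2/M genes did not follow. Bub1, a spindle checkpoint kinase, had the smallest difference of the role (-0.02 ± 0.71), and Aurkb, the kinase of the chromosomal passenger complex, differed by -0.04 ± 0.17. Mki67 stood at 981, 312, 886, 644 and 760.3 CPM in the set and at 301 to 894 CPM, median 799, in the rest (-0.11 ± 0.90). Cdk1 and Mki67 hold CHR runs in their promoter windows as Cdc20 does. Of the 14 members with a matched promoter that were lower without the outlying libraries, 6 held a CHR run. Of the 16 that overlapped 5 did, and of the 3 that were higher 0 did, against 14.1% of tested genes. A CCAAT box was in 13, 10 and 1 of these, against 42.8% of tested genes. Of all 34 matched members 11 (32.4%) held a CHR run and 24 (70.6%) a CCAAT box. A link between either element and the set difference was not tested.

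The 3 CDK inhibitors did not share a direction. Cdkn1a was 1.91-fold higher in the set (0.93 ± 0.15), at 99.7 to 135 CPM against 46.1 to 69.3 CPM. Cdkn2c was 1.72-fold lower (-0.78 ± 0.17), at 98.3 to 120.04 CPM against 171 to 228 CPM. Cdkn1b, which encodes the inhibitor p27 of cyclin E and cyclin A complexes, stood at 288, 240.1, 292, 294 and 288 CPM in the set and at 247 to 309 CPM, median 292, in the rest (-0.04 ± 0.11). Within each set Cdkn1b varied little outside the outlying libraries.

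Myc (ENSMUSG00000022346, chr15:61985391-61990374, plus strand) had the largest difference of all members, 4.42-fold lower in the set (-2.15 ± 0.30). It stood at 28.1, 25.7, 36.5, 31.9 and 35.6 CPM in the set, and at 144 and 121 CPM with DMSO, 163 and 157 CPM with AM580, 134 and 143 CPM with CD3254, 164 and 108 CPM with the joint treatment and 144 and 122 CPM with 9-cis retinoic acid in the rest. The highest library of the set was below the lowest of the rest by more than any treatment differed from DMSO.

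**Figure D3:**
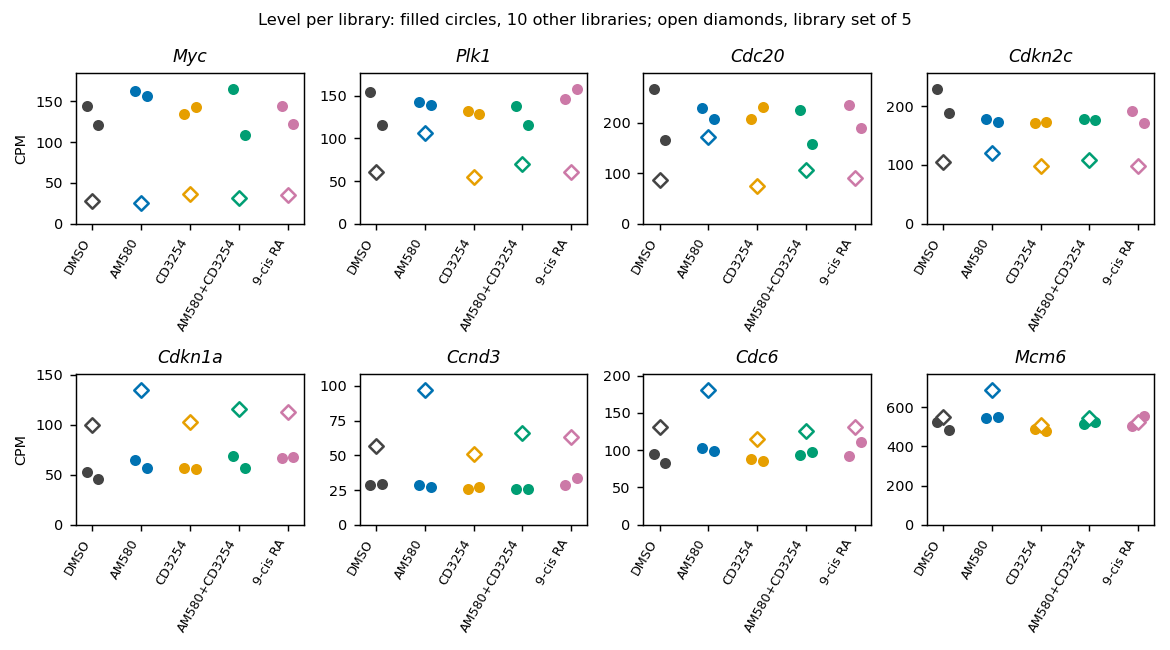
CPM (y axis, linear from 0) of Myc, Plk1, Cdc20, Cdkn2c, Cdkn1a, Ccnd3, Cdc6 and Mcm6 in each library, grouped by treatment on the x axis; open diamonds are the 5 libraries of the set and filled circles the other 10. Diamonds lie below the circles of their treatment for the 4 genes of the top row and above for Cdkn1a, Ccnd3 and Cdc6, while Mcm6 differs by 0.11 in log2 and AM580 replicate 1, at 685 CPM, is its highest library.

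Other genes of the same pathways were taken from lists made for this purpose. None of these lists had a gene past the threshold in any of the 10 comparisons in edgeR's test, with the library set term or without it. With AM580 3 of 49 further mitosis genes had a negative change and 1 of 37 further origin and replisome genes a positive one at an unadjusted p under 0.05, against 4.21% of all genes. With CD3254 0 of either list did, against 1.98%. Of 20 other CDK inhibitors and p53 targets 3 had a positive and 1 a negative change with AM580 at that p, and 0 with CD3254. With the joint treatment 2 were positive and 1 negative, against 4.79% of all genes. With 9-cis retinoic acid 2 were positive and 0 negative, against 3.97%. In each of these comparisons at most 1 gene of the nucleotide synthesis, retinoblastoma or Myc lists did. Between the library sets, 15 of the 49 mitosis genes were lower in all 5 and 1 higher (median -0.41), against the shares of 12.6% and 13.4% of all genes. Without the outlying libraries the counts were 28 and 1, against 18.5% and 18.7% of all genes.

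In the mitosis list the lowest differences were of Aspm (-1.19 ± 0.83), a spindle pole protein, and Ckap2 (-1.15 ± 0.36), which stabilises microtubules, and the highest of Pttg1 (0.40 ± 0.62), the securin, and Pkmyt1 (0.37 ± 0.14), a kinase that inhibits CDK1. Of 37 origin and replisome genes 10 were lower and 0 higher (median -0.10), against 12.6% and 13.4% of all genes, from Gins1 (-1.20 ± 0.30) and Orc2 (-0.89 ± 0.41) to Orc1 (0.38 ± 0.17) and Pold2 (0.48 ± 0.47). Gins1 and the member Gins2 encode subunits of 1 complex, and Gins2 differed by 0.46 ± 0.53, with its highest value, 103 CPM, in AM580 replicate 1, and by 0.17 without the outlying libraries. Of 11 nucleotide synthesis genes 5 were lower and 1 higher, against the same shares, from Gart (-0.97 ± 0.17) and Cad (-0.95 ± 0.35), enzymes of purine and pyrimidine synthesis, to Paics (0.28 ± 0.17) and Rrm2b (0.81 ± 0.61), the p53-inducible partner of Rrm1.

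Upstream regulators were mixed, and their counts too stand against 12.6% of all genes lower and 13.4% higher. Of 16 genes of the retinoblastoma, E2F and MuvB families 5 were lower and 1 higher, from E2f4 (-0.74 ± 0.17) and Lin9 (-0.74 ± 0.38) to Lin37 (0.37 ± 0.37) and Rbl2 (0.69 ± 0.13), a repressor of E2F targets in resting cells. Of 20 other CDK inhibitors and p53 targets 5 were lower and 6 higher, from Plk2 (-2.44 ± 0.29) and Trp53inp1 (-1.40 ± 0.93) to Cdkn2d (1.38 ± 0.53), an inhibitor of CDK4 and CDK6, and the antiproliferative gene Btg2 (1.43 ± 0.32). Of 15 genes of the Myc network 2 were lower and 3 higher, from the nucleolar genes Nop58 (-1.22 ± 0.75) and Nop56 (-1.21 ± 0.15) to Mxd1 (0.78 ± 0.19) and Mxi1 (1.55 ± 0.09), which encode antagonists of MYC. The hypoxia genes ranged from Ldha (1.95 ± 0.43) and Vegfa (2.06 ± 0.26) to Ankrd37 (5.36 ± 0.67) and Adm (6.17 ± 0.42).

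**Figure D4:**
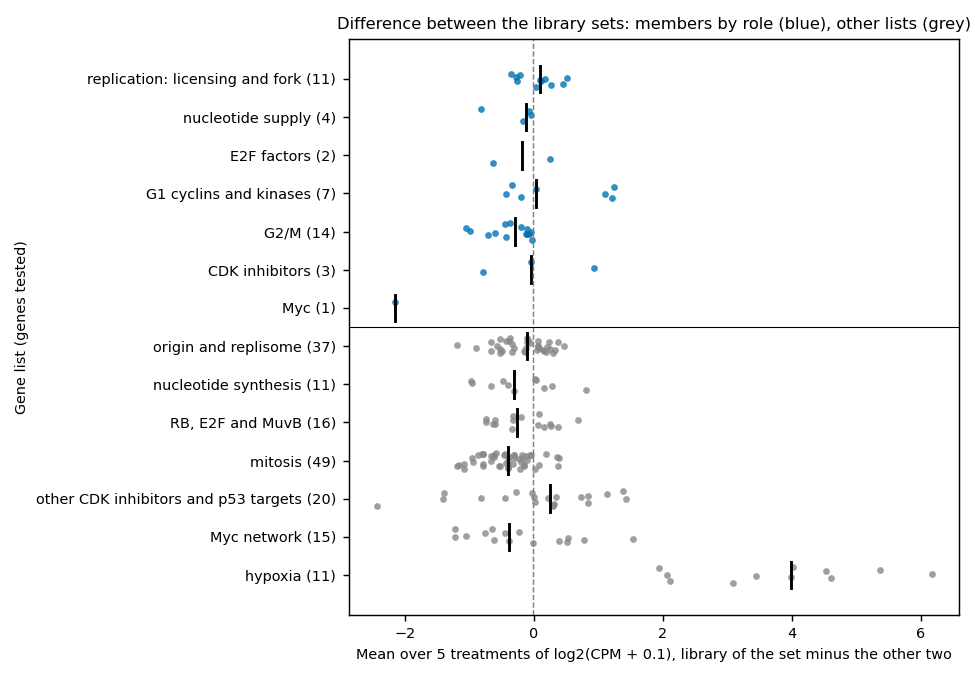
Mean over 5 treatments of the log2 difference between the library of the set and the mean of the other 2 libraries of its treatment (x axis) for each gene tested, by role for the members (blue, above the line) and by list for further genes (grey); black bars are medians. Medians of the members' roles run from -2.15 for Myc and -0.28 for G2/M to 0.10 for replication, and that of the hypoxia list is 3.99.

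The outlying libraries held the extreme values of several members. Over 12232 genes with at least 1 CPM in every library, AM580 replicate 1 was above the other 4 libraries of its set by a median log2 of 0.62 for genes under 2 kb of exon and below them by 0.40 (a difference of -0.40) for genes of 6 kb and over. In 9-cis retinoic acid replicate 3 the same medians against the other 9 libraries were -0.11 and 0.12. The members did not all follow these medians. In AM580 replicate 1 the 2 members under 2 kb had a median of 0.73. The 7 members of 6 kb and over had a median of 0.16, and ranged from -1.37 to 0.71. In 9-cis retinoic acid replicate 3 the members' medians were -0.14 and 0.07. Mki67, with 10.1 kb of exon, was below in both, by -1.37 and -1.40. Bub1 (-1.28 and -1.18) and Ccne2 (-1.30 and -1.14), the gene of cyclin E2, were the other members more than halved in both, 3 of 40 members compared against 2.52% of all genes. Their exons are of 4.35 and 3.50 kb. The 308 genes more than halved in both had a median of 6.84 kb of exon, against 4.41 kb over all 12232.

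**Figure D5:**
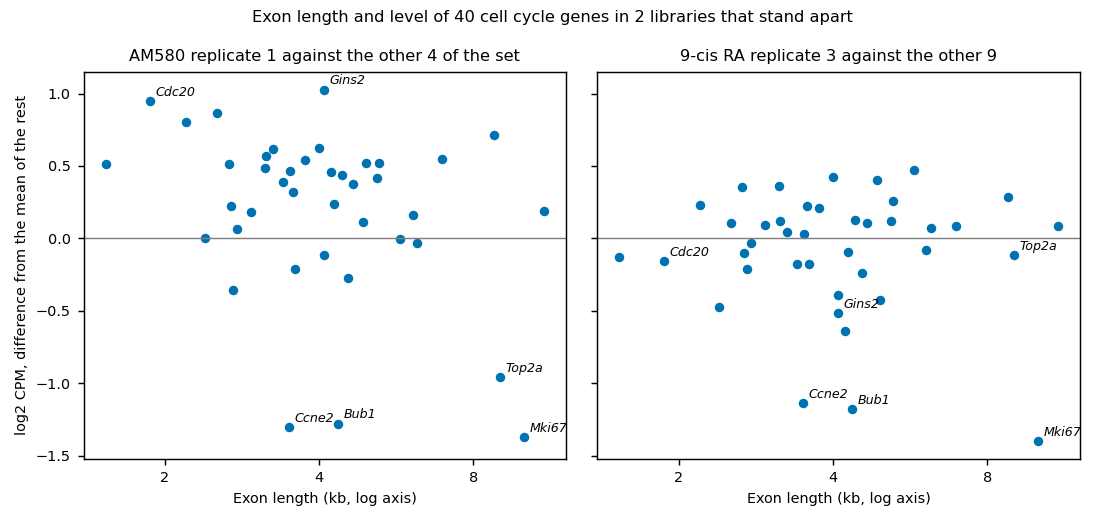
Difference in log2 CPM (y axis) of AM580 replicate 1 from the other 4 libraries of the set (left) and of 9-cis retinoic acid replicate 3 from the other 9 (right) against exon length in kb on a log axis, for 40 members. Mki67, Bub1 and Ccne2 lie below -1 in both panels, while Top2a, also long, is low only in AM580 replicate 1.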

How the data were processed

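RNA-seq read counts of 15 libraries, 3 for each of 5 treatments, were used. The deposited table holds raw counts per Ensembl gene, made with FastQC, HISAT2 2.2.1, SAMtools 1.18 and HTSeq on mm10, per the submitters' processing notes. Annotation release and filters: not given in the sources used here. The same holds for the strand setting, and without strand the reads of overlapping or antisense genes cannot be told apart. Replicates were not pooled. Reads in the 5 categories without a gene (18.1% to 28.55% of reads in 14 libraries, 63.0% in replicate 3 of 9-cis retinoic acid) stayed out of library sizes and tests. Assigned reads numbered 14600962 to 46801058 per library. Of 43432 gene identifiers 42462 matched a symbol.

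Counts were filtered with filterByExpr, scaled with TMM factors and tested with edgeR 4.0.16 (R 4.3.3, limma 3.58.1) by the quasi-likelihood test, robust and two-sided, with treatment and library set as terms (9 residual degrees of freedom), which was also tested on simulated data. Benjamini-Hochberg adjustment over 16736 genes within each of 10 contrasts gave the FDR, with a threshold of 0.05. The SE was derived from the F statistic. The median biological coefficient of variation was 0.193 with the set term and 0.305 without it. CPM are TMM-scaled. DESeq2 1.42.0, other scalings, no filter, no set term, a replicate block, the 10 libraries outside the set and each library left out in turn were the alternatives. Leaving out both outlying libraries (9-cis retinoic acid replicate 3 and AM580 replicate 1), and looking at DMSO within both sets and at exon length, were chosen after seeing the data. GENCODE M21 (GRCm38, also named mm10) gave gene positions and exon lengths, and RefSeq (GRCm38.p6) the promoter sequences. Libraries of 1 group differed by far more than sampling noise, and none was counted as a repeat of another. Same-numbered libraries deviated together (correlation over 0.1) in 20 of 30 pairs (lowest -0.681, highest 0.815), and in all 3 pairs for 4 of 10 pairs of groups: DMSO with AM580, with CD3254 and with 9-cis retinoic acid, and AM580 with CD3254. Replicate 1 is the library of the set in these groups, so pairing by number and the set cannot be told apart in them. In the joint group it is replicate 2. Correlations of that group with the others ran from -0.657 to -0.415 for replicate 1 and from -0.681 to -0.525 for replicate 2. For replicate 3 they ran from 0.347 to 0.588. The labels do not say what a number marks.

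Every library's value is given for the 3 members with the smallest p in each comparison with DMSO and for 12 members chosen by role. Other members are named where their set difference is the largest or smallest of their role, and further lists by their extremes. Plk1, Foxm1, Ccnd3, Cdk2, Cdk4, Cdk6, Aurkb, Ccne2, Tyms, Tk1, Mcm6 and the members of counts of 6 or fewer were named after their values were seen. The members and lists were chosen with earlier results of these data known.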

Additional observations from a re-analysis of the deposited data

How the results depend on the processing

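The count of members past the threshold was 0 in each of the 10 comparisons and stayed 0 in 240 of 240 combinations with the 24 other settings, the fit without the library set term and DESeq2 among them. The fit with a replicate block also called 0 members in each comparison, and changed no call. The 12 changes followed by name kept their sign in 288 of 288 refits and passed the threshold in 0, with a smallest FDR of 0.0837. Ccnd2 moved most, from -1.34 to -0.50 with 9-cis retinoic acid and from -1.04 to -0.22 with CD3254, without DMSO replicates 1 and 2 in turn. For Ccnd1 with the joint treatment the change ranged from 0.83 in the 10 libraries outside the set to 1.57 with a replicate block in place of the set term, and with 9-cis retinoic acid it was 0.79 without replicate 3 of that treatment and 1.61 without its replicate 1. The number of members lower in all libraries of the set was 9, ranged from 9 to 15 when 1 library was left out, with 15 reached without AM580 replicate 1, and was 17 with both outlying libraries (9-cis retinoic acid replicate 3 and AM580 replicate 1) left out. The number higher ranged from 4 to 6. Fewer libraries make it easier for ranges not to overlap, and the shares over all genes rose with them. With library totals alone 6 members were lower and 5 higher, so these counts depend on the scaling. Shares over all genes are not given for this scaling or with 1 library left out. In the main setting they were 12.6% lower and 13.4% higher. Depth limits Ccnd2 (2 to 29 reads) and Cdk6 (0 to 6 reads) most.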
